A study of Mus musculus with 6 samples.

Results

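Complex I of the mitochondrial respiratory chain was followed through every gene whose mouse symbol starts with Nduf. Symbols were found through the RefSeq accession of each array probe, and a gene was kept when the spots of its probe stood well above background in Cy3 or in Cy5 on every one of the 3 arrays, with the brightest probe standing for the gene. Of 54 such symbols, 46 were measured among 13705 genes in all. They comprise 36 subunits of complex I, 8 assembly factors (Ndufaf genes) and 2 genes that carry the name but are not counted here as subunits, *Ndufa4* and *Ndufa4l2*. The 8 others had no matched probe and were not analysed here. These are *Ndufb1*, *Ndufa11b*, *Ndufb4b*, *Ndufb4c*, *Ndufs6b*, *Ndufa12-ps*, *Ndufab1-ps* and *Ndufs5-ps*. The subunits encoded by mitochondrial DNA were likewise not analysed here.

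The RNA measured was that of tibialis anterior (TA) muscles, taken from 3 mice of the *mdx* and 3 of the N1ICD-*mdx* genotype. All mice were 9 months old according to the sample labels, of a mixed 129 × C57BL/6 background, and ate regular chow. Mice of both groups carry the *mdx* mutation and lack dystrophin, the protein missing in Duchenne muscular dystrophy. N1ICD-*mdx* mice carry in addition a Cre-dependent transgene for the intracellular domain of Notch1 (N1ICD), which MCK-Cre switches on in muscle fibers but not in the other cells of the muscle. On each of 3 Agilent mouse arrays an *mdx* muscle (Cy3) was hybridized against an N1ICD-*mdx* muscle (Cy5). No dye swap was made, so dye and genotype cannot be told apart in any value that follows.

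Complex I takes electrons from NADH and passes them to ubiquinone, and it uses the energy released to pump protons across the inner mitochondrial membrane. It is built from an NADH-binding N module, a ubiquinone-binding Q module and a membrane arm with a proximal and a distal part, and a set of core subunits does the chemistry while accessory subunits surround it. Assembly factors help to join the modules and are not part of the finished enzyme. Skeletal muscle fibers depend on it for sustained contraction.

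All 54 matched probes of the 46 genes were well above background in both channels of all 3 arrays, and no spot was saturated. The 3 arrays did not spread alike. The log2 ratios of all genes had an SD of 0.244, 0.536 and 0.238 on arrays 1, 2 and 3. Macrophage and proliferation markers were highest in the *mdx* muscle of replicate 2. The summed intensity of 18 macrophage markers was 118758 there, 35801 and 55062.2 in the other *mdx* muscles, and 25694.7 to 51636.1 in the N1ICD-*mdx* muscles. Values without replicate 2 are therefore given where they move a group median by over 1.5 times or turn its sign, and for the subunits as a whole. Whole muscle was measured, so fewer fibers and less RNA per fiber cannot be told apart.

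Complex I subunits had higher relative expression in N1ICD-*mdx* than in *mdx* muscles in nearly every case, by a small amount. The mean log2 ratio was positive for 35 of 36 subunits, while 49.1% of all genes had a positive mean. It was positive on all 3 arrays for 30 subunits, against 17.7% of all genes. The median over the subunits was 0.28 and stood at 0.15, 0.46 and 0.26 on arrays 1, 2 and 3, where the median over all genes lay at 0.00. Without replicate 2 the subunit median was 0.21 and 33 of 36 were positive.

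In limma, neither a subunit nor any other of the 13705 genes (0%) reached an adjusted p under 0.05. All 46 members had an adjusted p of 0.704 or more. At an unadjusted p under 0.05, 18 subunits were higher and none was lower, where 4.05% of all genes were higher and 2.44% lower, 6.49% in all. The 3 N1ICD-*mdx* levels lay above all 3 *mdx* levels for 24 subunits, against 7.75% of all genes. Only *Ndufa13* also reached 1.5-fold, as did 0.474% of all genes in that direction. The count of 18 depended strongly on the setting. It was 15 without replicate 2, 9 without replicate 1 and 3 without replicate 3, and it was 1 when the processed signals of the scanner software were used in place of background-corrected and loess-normalized signals. With those processed signals the median over the subunits was 0.02, 0.34 and 0.16 on the 3 arrays, so that array 1 held 20 positive subunits of 36. The median over all genes was then 0.02, 0.11 and 0.02, so on array 1 the subunits were level with all genes.

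**Figure D1:**
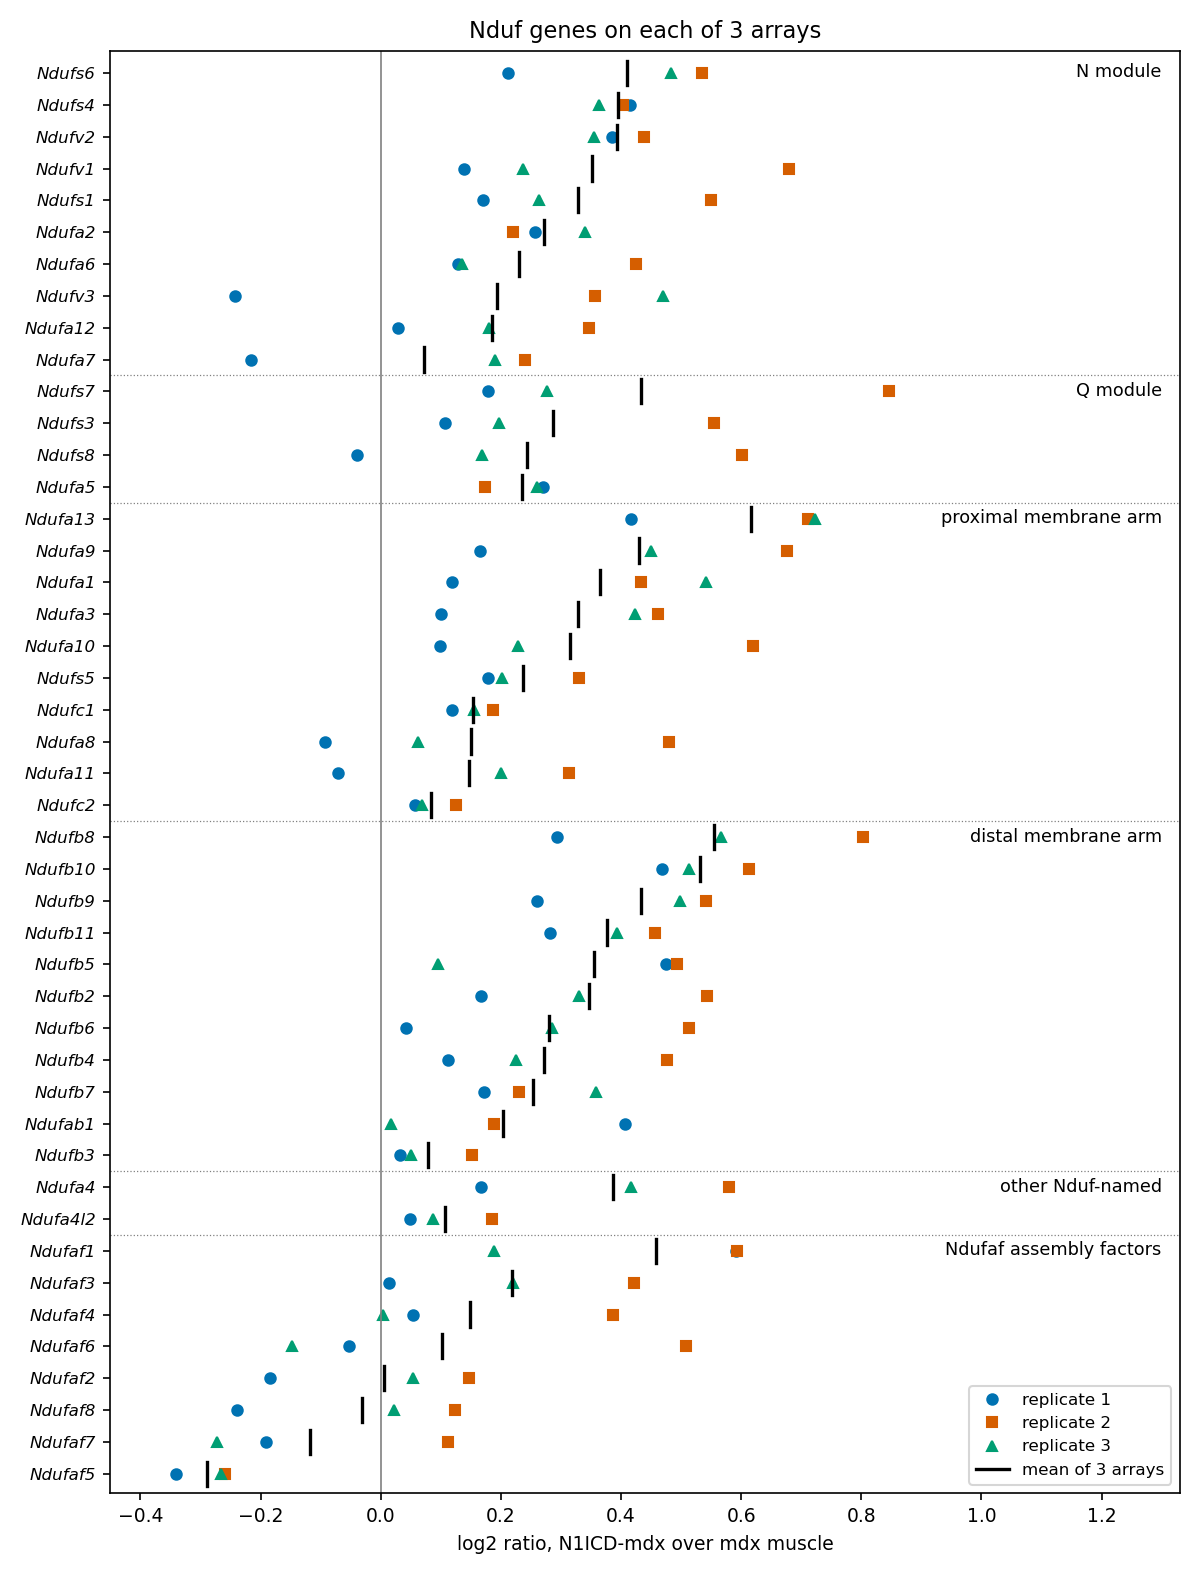
Log2 ratio of N1ICD-*mdx* over *mdx* muscle (horizontal axis) for 45 of the 46 Nduf genes, grouped by place in the complex, with 1 point for each of 3 arrays and a bar at their mean. Of 36 subunits measured, 35 have a positive mean, whereas 5 of 8 assembly factors do, and 1 member is not shown.

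Promoters of the members were read to see which letters they share. RefSeq windows of 300 bases, from 250 before to 50 after the start of transcription on GRCm38.p6, were found for 40 of the 46 genes as 42 promoters. Genes with no entry included *Ndufa2*, *Ndufa4l2*, *Ndufaf6*, *Ndufb9* and *Ndufs1*. The motif AAGATGGC, known as a binding motif of the factor YY1, was present on either strand in 8 of 42 (19%), against 2.75% of 32851 promoters. In each of the 8 it lay on the strand of the gene, its first letter between bases 11 and 39 of the transcript, and it contains an ATG. The 8 genes had a median log2 ratio of 0.40, from −0.03 for *Ndufaf8* to 0.55 for *Ndufb8*, and the other 32 had 0.24. A link between motif and ratio was not tested. These stretches show the motif in capitals, 5′ to 3′ on the gene's strand.
*Ndufb8*, chr19:44555393-44555422, minus strand: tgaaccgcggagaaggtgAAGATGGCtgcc
*Ndufs7*, chr10:80249462-80249491, plus strand: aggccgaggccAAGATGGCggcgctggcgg
*Ndufa9*, chr6:126849097-126849126, minus strand: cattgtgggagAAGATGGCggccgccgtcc
*Ndufs6*, chr13:73328433-73328462, minus strand: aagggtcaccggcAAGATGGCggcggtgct
*Ndufs4*, chr13:114388045-114388074, minus strand: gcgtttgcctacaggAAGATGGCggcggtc
*Ndufa3*, chr7:3617384-3617413, plus strand: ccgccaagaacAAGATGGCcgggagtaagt
*Ndufc1*, chr3:51408915-51408944, minus strand: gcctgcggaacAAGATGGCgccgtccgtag
*Ndufaf8*, chr11:120098933-120098962, plus strand: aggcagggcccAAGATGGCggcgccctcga

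The palindromic binding motif of the factor NRF1, spelled by the capitals in the stretches that follow, was in 3 of 42 (7.14%), against 0.971% of all promoters. Its genes were *Ndufa11* and the assembly factors *Ndufaf4* and *Ndufaf5*, with log2 ratios of 0.15, 0.15 and −0.29. *Ndufa11* lay below the median of the subunits, 0.28. Beside the median of the assembly factors, 0.05, *Ndufaf4* lay above and *Ndufaf5* below. The 3 genes are shown because 1 of them has the lowest ratio of all members.
*Ndufa11*, chr17:56717692-56717721, plus strand: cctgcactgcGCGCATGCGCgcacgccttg
*Ndufaf4*, chr4:24897960-24897989, plus strand: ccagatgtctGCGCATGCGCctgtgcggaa
*Ndufaf5*, chr2:140170652-140170681, plus strand: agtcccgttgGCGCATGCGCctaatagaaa
The other motifs searched on both strands were less unequal between members and all promoters. CCGGAAG, a motif of ETS factors, was in 14.3% against 8.86%, CCAAT in 33.3% against 37.4% and TATAAA in 11.9% against 13.6%. No match overlapped a match of another motif. A match is a stretch of letters and says nothing of binding in these muscles.

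The N module, which takes electrons from NADH, had 10 of 10 measured subunits with a positive mean and a median log2 ratio of 0.30. The *Ndufs4* product is an accessory subunit whose loss in mice gives a model of Leigh syndrome. *Ndufs4* had log2 intensities of 13.19, 13.20 and 13.39 in the *mdx* muscles of replicates 1, 2 and 3 and of 13.61, 13.61 and 13.75 in the N1ICD-*mdx* muscles. All 3 N1ICD-*mdx* levels were above all 3 *mdx* levels, and the difference was nearly equal on each array. Its log2 ratio was 0.39 ± 0.08 (SE of limma, n = 3 arrays), or 1.31-fold, with an unadjusted p of 0.00714. It was the only subunit that kept an unadjusted p under 0.05 with processed signals, where its ratio was 0.42 ± 0.13 (unadjusted p = 0.0323 in limma).

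*Ndufv2*, a core subunit that holds an iron-sulfur cluster, had *mdx* levels of 13.97, 13.84 and 14.00 and N1ICD-*mdx* levels of 14.36, 14.28 and 14.36. The groups did not overlap, and the log2 ratio was 0.39 ± 0.08 (unadjusted p = 0.00757 in limma). *Ndufs6*, which encodes an accessory subunit, had log2 ratios of 0.21, 0.53 and 0.48 on the 3 arrays and the highest mean of the module, 0.41 ± 0.11 (unadjusted p = 0.016). Together with *Ndufs1* and *Ndufa2*, these were the subunits of the N module that reached an unadjusted p under 0.05. *Ndufs1*, the largest core subunit, which carries iron-sulfur clusters, had log2 ratios of 0.17, 0.55 and 0.26, and *Ndufa2* had 0.26, 0.22 and 0.34. *Ndufv1*, the core subunit that binds NADH and the flavin cofactor, stood at 0.14, 0.68 and 0.24 with an unadjusted p of 0.0618, and its groups overlapped narrowly. *Ndufa7* was lowest in the module, with log2 ratios of −0.22, 0.24 and 0.19 that differed in sign. *Ndufv3* also went down on array 1, at −0.24, against 0.36 and 0.47. *Ndufa6* and *Ndufa12* were positive on all arrays, with means of 0.23 and 0.19.

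The Q module, where ubiquinone is reduced, had a median log2 ratio of 0.24 over 5 subunits, with 0.11, 0.55 and 0.20 by array and 0.15 without replicate 2. It held the highest core subunit. *Ndufs7*, which carries the last iron-sulfur cluster before ubiquinone, had *mdx* levels of 14.91, 14.39 and 14.69 and N1ICD-*mdx* levels of 15.08, 15.24 and 14.97. The groups did not overlap, but array 2 gave a log2 ratio of 0.85 and arrays 1 and 3 gave 0.18 and 0.28. The mean of 0.43 ± 0.16 had an unadjusted p of 0.0535 in limma.

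*Ndufs3* and *Ndufs8*, core subunits of the same module, resembled *Ndufs7* in that array 2 gave the highest ratio. *Ndufs3* had log2 ratios of 0.11, 0.55 and 0.20. *Ndufs8*, which holds a pair of iron-sulfur clusters, had −0.04, 0.60 and 0.17. The accessory subunit gene *Ndufa5* differed from them, with nearly equal ratios of 0.27, 0.17 and 0.26 and an unadjusted p of 0.0449. A second, dimmer probe of *Ndufa5* gave −0.05, −0.08 and −0.05, so the probes of this gene disagreed. Over the 7 core subunits of both modules, 2 reached an unadjusted p under 0.05 and the median was 0.33. The 29 accessory subunits all had a positive mean, 16 reached that p and the median was 0.27. Without replicate 2 the medians were 0.19 for core and 0.25 for accessory subunits, so their order rested on that replicate.

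In the proximal membrane arm, 10 of 10 accessory subunits had a positive mean, with a median log2 ratio of 0.28 that was 0.18 without replicate 2. *Ndufa13*, also known as Grim19 and needed for complex I assembly in mice, had the highest ratio of all members. Its levels were 15.73, 15.68 and 15.60 in *mdx* and 16.15, 16.39 and 16.32 in N1ICD-*mdx* muscles. The lowest N1ICD-*mdx* level was well above the highest *mdx* level. The log2 ratio was 0.62 ± 0.11, or 1.53-fold (unadjusted p = 0.00355 in limma), which ranked 77 from the top among 13705 genes. With processed signals it was 0.30 ± 0.16 (unadjusted p = 0.126 in limma), so the size of this difference depended on the processing.

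*Ndufa9*, which encodes a subunit that binds a nucleotide cofactor, came next in the proximal arm with log2 ratios of 0.16, 0.68 and 0.45. *Ndufa1* had 0.12, 0.43 and 0.54, *Ndufa3* had 0.10, 0.46 and 0.42, and *Ndufs5* had 0.18, 0.33 and 0.20. Each of these 4 genes reached an unadjusted p under 0.05 (0.0266, 0.0339, 0.04 and 0.0496). The others of the arm did not. *Ndufa10* reached a mean of 0.32 through 0.62 on array 2. *Ndufc1* stayed close to its mean of 0.15, and *Ndufa8* and *Ndufa11* were negative on array 1, at −0.09 and −0.07. *Ndufc2* was lowest, with 0.06, 0.12 and 0.07.

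The distal membrane arm, whose accessory subunits are mostly Ndufb proteins, had 11 of 11 positive means, all of them positive on each of the 3 arrays, and the highest median of the 4 groups, 0.35. *Ndufb8*, whose protein is often probed as a marker of assembled complex I, had *mdx* levels of 15.27, 14.71 and 15.03 and N1ICD-*mdx* levels of 15.57, 15.52 and 15.60. The N1ICD-*mdx* muscles lay close together and the *mdx* muscles were spread, with replicate 2 lowest. The log2 ratio was 0.55 ± 0.13 (unadjusted p = 0.011 in limma). *Ndufb10*, a subunit with disulfide bonds that faces the intermembrane space, had *mdx* levels of 14.87, 14.62 and 14.71 and N1ICD-*mdx* levels of 15.33, 15.23 and 15.23. The groups did not overlap, and its log2 ratio of 0.53 ± 0.09 gave the lowest unadjusted p of all members, 0.00279.

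Of the remaining distal genes, *Ndufb9* had log2 ratios of 0.26, 0.54 and 0.50, *Ndufb11* had 0.28, 0.46 and 0.39, and *Ndufb7* had 0.17, 0.23 and 0.36. *Ndufb5* had 0.47, 0.49 and 0.10, and *Ndufb2* had 0.17, 0.54 and 0.33. These 5 genes reached an unadjusted p under 0.05, at 0.0109, 0.0111, 0.0431, 0.0386 and 0.0313. *Ndufb4* and *Ndufb6* had means of 0.27 and 0.28 that rested more on array 2. *Ndufab1*, the mitochondrial acyl carrier protein, was the only dim subunit, with log2 ratios of 0.41, 0.19 and 0.02 and overlapping groups. *Ndufb3* was lowest in the arm, with 0.03, 0.15 and 0.05.

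**Figure D2:**
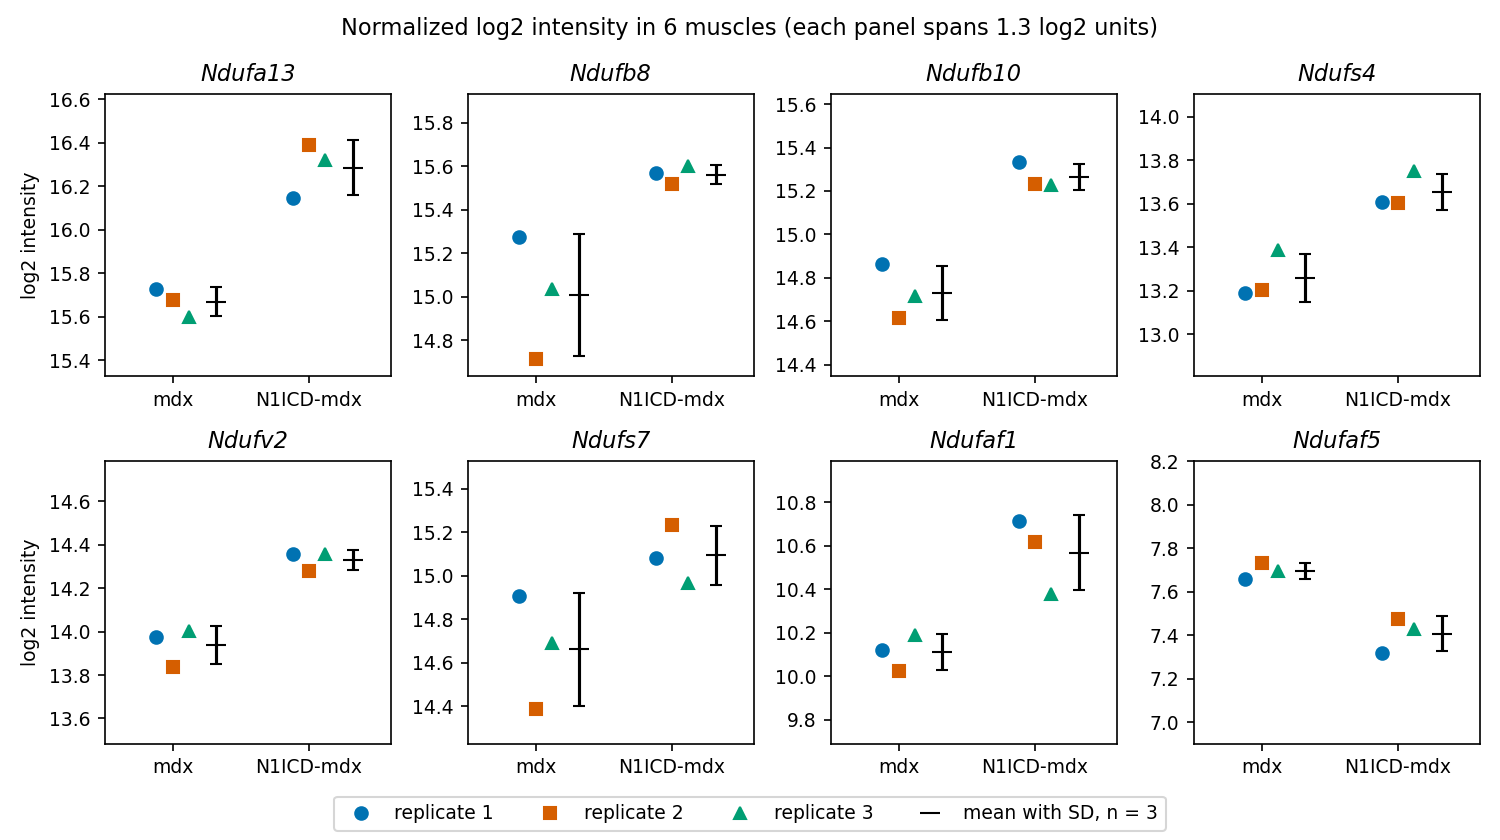
Normalized log2 intensity (vertical axis) of 8 Nduf genes in the 3 *mdx* and 3 N1ICD-*mdx* muscles, with points for the muscles and a bar for the mean with SD. The groups do not overlap for *Ndufa13*, *Ndufb8*, *Ndufb10*, *Ndufs4*, *Ndufv2*, *Ndufs7* and *Ndufaf1*, and for *Ndufaf5* the N1ICD-*mdx* muscles are lower.

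The assembly factors were divided in direction. Of 8, 5 had a positive mean and 3 a negative mean, with a median log2 ratio of 0.05 that was −0.12, 0.27 and 0.01 on the 3 arrays. Without replicate 2 the median was −0.08, so its sign rested on that array. In the muscles, the summed intensity of the 8 genes was 5586.91 to 6622.52 in *mdx* and 6642.27 to 7140.47 in N1ICD-*mdx* muscles. For the 36 subunits it was 624413 to 704401 and 805969 to 891714. In both lists all N1ICD-*mdx* sums were above all *mdx* sums, but for the assembly factors only narrowly, at 6642.27 against 6622.52. A sum weighs bright genes most, and that of the assembly factors leaned on *Ndufaf1*, with log2 ratios of 0.59, 0.59 and 0.19. It therefore does not describe the list as a whole. The median level of the assembly factors, relative to the mean of each gene over all muscles, overlapped between the groups. It was 0.07, −0.20 and 0.02 in *mdx* and −0.06, 0.10 and 0.01 in N1ICD-*mdx* muscles. The difference between subunits and assembly factors was not tested, since genes of 1 array are not replicates.

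*Ndufaf1*, whose protein joins the assembly complex of the membrane arm with Ecsit and Acad9, was the highest assembly factor. Its levels were 10.12, 10.02 and 10.19 in *mdx* and 10.71, 10.62 and 10.38 in N1ICD-*mdx* muscles. The groups did not overlap, and the log2 ratio was 0.46 ± 0.12 (unadjusted p = 0.018 in limma). *Ndufaf5*, whose human counterpart hydroxylates an arginine of the NDUFS7 subunit, was the lowest. Its levels were 7.66, 7.73 and 7.70 in *mdx* and 7.32, 7.47 and 7.43 in N1ICD-*mdx* muscles. It was the only member with all N1ICD-*mdx* levels below all *mdx* levels, as seen for 6.31% of all genes, and the log2 ratio was −0.29 ± 0.08 (unadjusted p = 0.0227). A second, dimmer probe of *Ndufaf5* gave −0.07, 0.14 and −0.05, so the probes of this gene disagreed.

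The remaining assembly factors gave unadjusted p-values of 0.124 or more in limma. *Ndufaf3* and *Ndufaf4*, whose products act together on the Q module, had log2 ratios of 0.01, 0.42 and 0.22 and of 0.05, 0.39 and 0.00. The levels of *Ndufaf4* did not overlap, but the groups were apart only in the third decimal. *Ndufaf6*, which acts early on the peripheral arm, had −0.05, 0.51 and −0.15, so that only array 2 was positive. *Ndufaf2*, a relative of the *Ndufa12* subunit gene, had −0.19, 0.15 and 0.05. *Ndufaf7*, whose human counterpart is a protein methyltransferase, had −0.19, 0.11 and −0.27. *Ndufaf8*, whose human counterpart partners NDUFAF5, had −0.24, 0.12 and 0.02. For each of these 6 genes the highest ratio was on array 2.

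Complex I assembly factors that are not named Nduf were divided in direction too. Among 10 of them, 7 had a positive mean, the median was 0.03 and none reached an unadjusted p under 0.05. By array the median was −0.04, 0.40 and −0.08, and without replicate 2 it was −0.06. The means ran from −0.29 for *Acad9* to 0.29 for *Dmac2*. The ratios of *Acad9* were −1.92, 1.13 and −0.07, the widest spread of the list. *Ecsit*, a partner of *Ndufaf1* and *Acad9*, had −0.10, 0.55 and −0.01, and *Tmem126b*, of the same assembly complex, had 0.00, 0.37 and −0.30. *Timmdc1* and *Dmac1* had means of −0.15 and −0.12. *Foxred1*, *Nubpl*, *Tmem186* and *Tmem70* had means of 0.01, 0.03, 0.08 and 0.26.

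Outside the subunits, *Ndufa4* was named as a complex I gene and is now placed with complex IV. Its log2 ratios were 0.17, 0.58 and 0.42, with a mean of 0.39 ± 0.12 (unadjusted p = 0.0255 in limma) and no overlap between the groups. *Ndufa4l2*, a hypoxia-responsive relative, had 0.05, 0.18 and 0.09, and its levels overlapped.

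Brightness moved with the ratio, and the subunits were bright. Spot brightness depends on the probe as well as on the transcript. When all genes were ordered by mean log2 intensity, 35 of 36 subunits were among the brightest 1371, where the median log2 ratio was 0.05, while in the dimmer groups of 1370 or 1371 genes it lay between −0.03 and 0.02. Among 888 other genes within the brightness range of the subunits other than *Ndufab1*, 59.5% had a positive mean, 26.9% were positive on all 3 arrays, 13.9% had all N1ICD-*mdx* levels above all *mdx* levels, and 14.2% were higher and 2.82% lower at an unadjusted p under 0.05. That range was chosen after the values had been seen. Those shares exceed the ones over all genes and are the nearer background for the subunits. Across the 36 subunits, which share probes' brightness and arrays, the ratio and the brightness had an r of 0.40.

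Each member was also set against the median of the 500 other genes nearest to it in brightness. These medians were 0.10 for the typical subunit and 0.09, 0.17 and 0.07 on the 3 arrays. Less these, the median over the subunits was 0.22, and 0.07, 0.27 and 0.22 by array. By mean, 34 of 36 subunits exceeded the genes nearest to them in brightness. The same held for 26, 32 and 35 subunits on arrays 1, 2 and 3. *Ndufa7* fell short of its like by 0.02, and *Ndufc2*, *Ndufb3* and *Ndufc1* exceeded their like by no more than 0.02. *Ndufa13* exceeded its like by 0.48, *Ndufb8* by 0.42 and *Ndufb10* by 0.40. These genes, *Ndufa2*, *Ndufb9* and *Ndufb11* all had the same comparison median, 0.13, although their log2 intensities ran from 14.99 to 15.98. For the brightest subunits the match in brightness was therefore coarse. On array 1 the proximal arm, the Q module and the core subunits were nearly level with genes of like brightness, at 0.01, 0.02 and 0.02. The N module was 0.09 and the distal arm 0.15 above on that array. For the assembly factors, which were of middle brightness, the like genes had a median of −0.01 and the difference was 0.06, with −0.12, 0.24 and 0.02 by array.

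**Figure D3:**
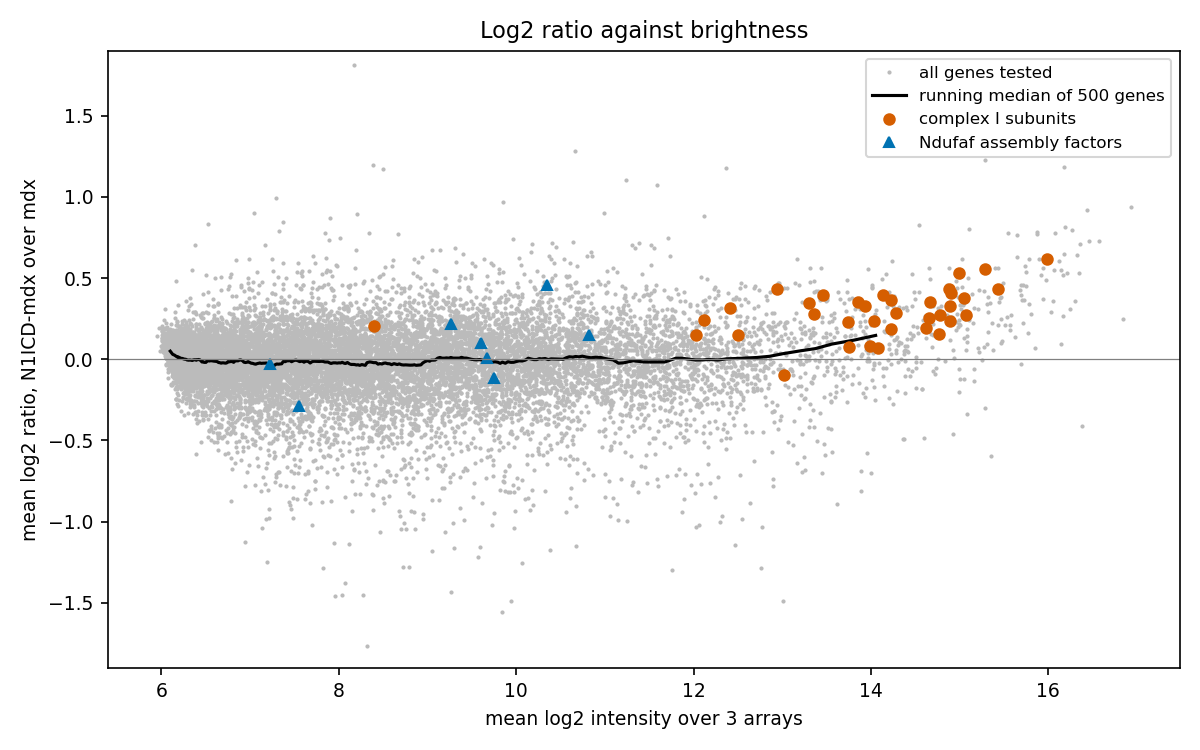
Mean log2 ratio of N1ICD-*mdx* over *mdx* (vertical axis) against mean log2 intensity (horizontal axis) for 13705 genes, with a running median and the 36 subunits and 8 assembly factors marked. The running median rises among bright genes, and 34 of 36 subunits lie above the median of the 500 genes nearest in brightness.

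The subunits were not alone among respiratory chain genes. Complex II, which passes electrons from succinate, had a median log2 ratio of 0.15 over 4 genes (0.08 without replicate 2), complex III 0.33 over 9, complex IV 0.32 over 13 and complex V, the ATP synthase, 0.31 over 17. Over the 43 genes, 39 had a positive mean and 26 were higher at an unadjusted p under 0.05, with medians of 0.23, 0.32 and 0.37 on the 3 arrays. At that p, 4.05% of all genes and 14.2% of genes as bright as the complex I subunits were higher. The 43 genes were brighter than those subunits, with a median log2 intensity of 14.79 against 14.18. They were not set against genes of like brightness. The subunits of complex I stood at 0.15, 0.46 and 0.26. No test compared the complexes. Among these other genes the means ran from −0.27 for *Atp5c1* to 0.78 for *Uqcrh*. Transcripts of regulators of mitochondrial biogenesis were closer to 0, but these genes were far dimmer, with a median log2 intensity of 8.78. Of 8, 5 had a positive mean, none reached an unadjusted p under 0.05, and the median was 0.11, from −0.10 for *Ppargc1b* to 0.31 for *Tfb2m*. Of 11 genes that serve as measures of mitochondrial content, 8 had a positive mean, 4 were higher at that p, and the median was 0.09, from −0.21 for *Tomm40* to 0.58 for *Tomm22*. Their median log2 intensity was 11.84. Neither the regulators nor the content genes were set against genes of like brightness.

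Markers of muscle fibers had positive ratios like the subunits. Of 12, 11 had a positive mean and 5 were higher at an unadjusted p under 0.05. At that p, 4.05% of all genes and 14.2% of genes as bright as the complex I subunits were higher. The median was 0.40, with 0.33, 0.65 and 0.32 by array. The means ran from −0.15 for *Mylpf* to 1.23 for *Myh1*, a fast myosin of mature fibers. Their summed intensity was 527551 to 592434 in *mdx* and 790778 to 880781 in N1ICD-*mdx* muscles. These markers were also brighter than the subunits, with a median log2 intensity of 15.89, and were not set against genes of like brightness. All 12 were measured in what the labels give as muscle. Macrophage markers had ratios of the other sign. Of 18, 17 had a negative mean, with a median of −0.75 that was −0.13, −1.94 and −0.13 by array and −0.14 without replicate 2. None of the 18 reached an unadjusted p under 0.05. Of 13 proliferation markers, 12 had a negative mean, with a median of −0.54 that was 0.23, −2.20 and −0.12 by array and 0.16 without replicate 2. At an unadjusted p under 0.05, 1 of the 13 was lower, as were 2.44% of all genes. The means ran from −1.56 for *Gpnmb* to 0.00 for *Itgam* among the macrophage markers and from −1.28 for *Birc5* to 0.14 for *Tyms* among the proliferation markers.

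Of the other cells of the muscle, adipocyte markers also had mostly positive ratios. Of 6, 5 had a positive mean and 1 was higher at an unadjusted p under 0.05, with a median of 0.16 that was −0.31, 0.51 and 0.63 by array. At that p, 4.05% of all genes were higher and 2.44% lower. The means ran from −0.01 for *Pparg* to 0.55 for *Fabp4*. Their summed intensity was 15068.1 to 18472 in *mdx* and 21569.1 to 27547.7 in N1ICD-*mdx* muscles, without overlap. This sum rests mostly on *Fabp4*, the brightest of them at a log2 intensity of 13.96, with *Cfd* next at 11.46. The median marker level, relative to the mean of each gene over all muscles, did overlap. It was −0.11, −0.10 and −0.19 in *mdx* and −0.45, 0.42 and 0.49 in N1ICD-*mdx* muscles. Fibroblast markers had a positive mean in 6 of 8 and a median of 0.03, with 0.62, −0.64 and 0.11 by array and 0.30 without replicate 2. Endothelial markers had a positive mean in 5 of 8 and a median of 0.09, with 0.26, −0.21 and 0.09 by array and 0.15 without replicate 2. At an unadjusted p under 0.05, 1 fibroblast marker was higher and 1 endothelial marker was lower. The summed intensities of both overlapped between the groups. The part of fiber content, fat cells and infiltrating cells in the subunit ratios was not tested.

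**Figure D4:**
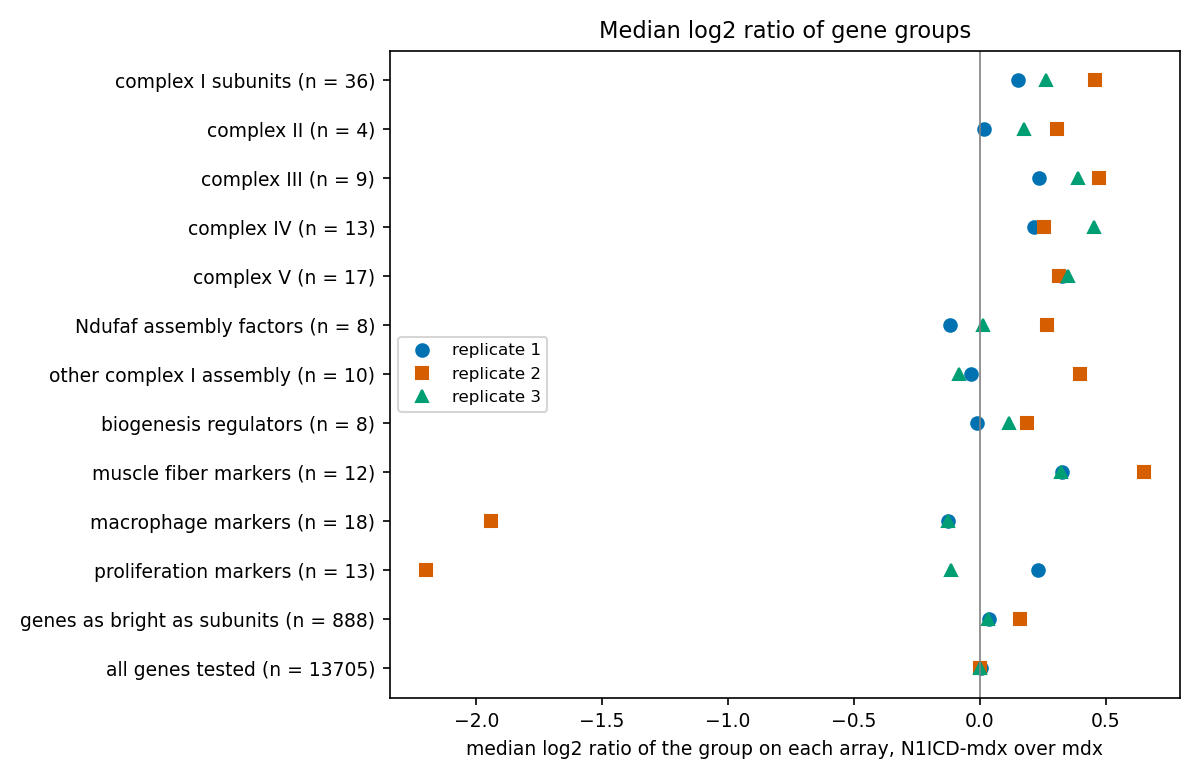
Median log2 ratio of N1ICD-*mdx* over *mdx* (horizontal axis) of 13 groups of genes, with 1 point for each of 3 arrays. The medians of the 36 subunits, of complexes II to V and of the fiber markers are positive on all arrays, and those of the macrophage and proliferation markers are far below 0 on array 2.

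The order of the 36 subunits by ratio was shared only in part between arrays. Across subunits, ratios correlated at 0.27 for arrays 1 and 2, 0.41 for 1 and 3, and 0.52 for 2 and 3. Over all genes these correlations were 0.00, 0.36 and 0.12. They describe genes that share probes and brightness on all arrays, and do not measure whether the subunits moved together. In the muscles, the median subunit level relative to the mean of each gene over the 6 muscles was −0.11, −0.29 and −0.06 in *mdx* and 0.06, 0.15 and 0.24 in N1ICD-*mdx* muscles. The *mdx* muscle of replicate 2 was lowest and all N1ICD-*mdx* muscles were above all *mdx* muscles.

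Of the members, 8 had a second probe for the same accession. The second probes of *Ndufb4* and *Ndufb6* kept the signs of the brighter ones on every array, with means of 0.20 and 0.29. That of *Ndufaf4* gave −0.02, 0.66 and 0.16, with the sign of array 1 turned. That of *Ndufa5* gave −0.05, −0.08 and −0.05, opposite to the brighter probe on every array, and that of *Ndufb11*, which was far dimmer, gave −0.31, 0.43 and −0.15. The dim second probe of *Ndufv3* gave 0.29, −0.12 and 0.37, with the signs of arrays 1 and 2 turned. *Ndufb5* gave 0.39, 0.22 and −0.18, with the sign of array 3 turned. The values of *Ndufa5*, *Ndufb5*, *Ndufb11*, *Ndufv3*, *Ndufaf4* and *Ndufaf5* therefore depend on the probe. Whether the probes of *Ndufb4*, *Ndufs6* and *Ndufa11* also bind transcripts of their close copies *Ndufb4b*, *Ndufb4c*, *Ndufs6b* and *Ndufa11b* was not tested.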

How the data were processed

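The authors hybridized RNA of 3 *mdx* (Cy3) and 3 N1ICD-*mdx* (Cy5) TA muscles to 3 Agilent SurePrint arrays, which were read out with Agilent Feature Extraction (11.5 in the labels). The deposited intensity values are, per the file headers, median spot and local background signals in each channel, not normalized, beside processed signals that the software had background-subtracted and dye-normalized. Median signals were used because a mean-signal column was absent. Median signals of 49 to 53 (Cy3) and 23 to 27 (Cy5) lay over backgrounds of 42 to 47 and 17. Precision is limited by there being 3 arrays.

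In limma 3.58.1 (R 4.3.3), background was corrected with normexp (offset 50) and signals were normalized by loess within arrays, with control spots at weight 0. Flagged outlier spots were dropped, and replicate spots of a probe averaged. Levels per muscle are channel values after scaling of the mean intensities between arrays (Aquantile). Of 55681 probes, 28026 were named by accession in RefSeq tables of GRCm38.p6, which gave no gene coordinates here because the array was designed on another build, and 17813 were kept. The 3 log2 ratios were fitted with an intercept and moderated variances (eBayes), with Benjamini-Hochberg adjustment over 13705 genes. The fit was run on simulated data with independent noise of equal spread on all 3 arrays. This does not test its behaviour with arrays of unequal spread, as here. Labels call the muscles biological replicates. The array pairs muscles by their replicate number, and the ratio within it keeps that block.

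Every Nduf gene was named or counted (1 is in the counts and medians but is not reported here by itself), with values on each array for core subunits, assembly factors, the highest and lowest of each group and those with an unadjusted p under 0.05. Of the other lists at most the highest and lowest genes were named, along with all complex I assembly genes. The members and lists were chosen with earlier results of these data known, so their direction is no independent evidence. Alternatives were processed signals, other background corrections, median centring, other filters on dim probes, the mean over probes, other variance models, array weights, no replicate block, omission of each replicate in turn, the methods' t-test and other numbers of genes of like brightness.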

Additional observations from a re-analysis of the deposited data

How the results depend on the processing

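The median of the subunits stayed between 0.19 (processed signals) and 0.38 (without replicate 1), and 29 to 36 of 36 subunits kept a positive mean, in all alternatives run. The excess over genes of like brightness was 0.15 to 0.26. The count of subunits higher at an unadjusted p under 0.05 was 18 and fell to 1 with processed signals, 9 with no background correction, 7 with an offset of 10, 5 with median centring and 9 with a trend and robust variances, and ran from 3 to 15 when a replicate was left out. It was 24 with array quality weights and 20 with no filter on dim probes. The cause was not tested. Median centring put the median of all genes at −0.18, and the subunits were 0.38 above it. With processed signals the median of all genes was 0.04, and the subunits were 0.15 above it.

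The median of the assembly factors was −0.18 with median centring, −0.011 with array quality weights, and −0.083 to 0.14 when a replicate was left out. Single named genes changed sign in 19 of 585 values, in 12 genes. With median centring these were *Ndufa11* (−0.015), *Ndufa4l2* (−0.15), *Ndufa7* (−0.028), *Ndufa8* (−0.032), *Ndufab1* (−0.041), *Ndufaf2* (−0.25), *Ndufaf3* (−0.034), *Ndufaf4* (−0.079), *Ndufaf6* (−0.15), *Ndufb3* (−0.033) and *Ndufc2* (−0.017). *Ndufa7* was −0.052 with processed signals and *Ndufaf6* −0.096 with array weights. When a replicate was left out, *Ndufa7* ran from −0.013 to 0.22, *Ndufa8* from −0.015 to 0.27, *Ndufaf2* from −0.065 to 0.10, *Ndufaf6* from −0.10 to 0.23 and *Ndufaf8* from −0.11 to 0.073. No member passed an adjusted p under 0.05 in any alternative, the lowest being 0.0956.

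Among all genes, the count at an adjusted p under 0.05 was 0 (890 genes at an unadjusted p under 0.05 in limma). It was 1 with array weights, 0 to 3 when a replicate was left out, and 0 in the methods' t-test, which gave 914 at an unadjusted p under 0.05. With no replicate block, the 6 channel values taken unpaired, it was 1 and 20 subunits were higher, and no other count of calls moved by over 1.5 times. The 890 became 2824 with median centring, 1802 with no filter on dim probes, 342 with a trend and robust variances, 3050 with array weights and 296 to 2104 when a replicate was left out. Counts at 1.5-fold with an unadjusted p under 0.05, 65 higher and 66 lower, became 271 and 173 with processed signals, 110 and 112 with an offset of 10, and 30 and 391 with median centring. Higher genes were 117 with array weights, and 95 to 122 when a replicate was left out. Lower genes were 40 with no filter on dim probes, 0 with a trend and robust variances, 15 in the methods' t-test, and 75 to 112 when a replicate was left out. The alternative with gene symbols of the array design was not run.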
